A study of Homo sapiens with 10 samples.

Results

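The solute carrier (SLC) genes expressed in 3 human liver cancer cell lines are described here. They are the rows of the deposited expression table whose symbol starts with SLC and a digit and whose mean over the 10 libraries was at least 2 FPKM, with SLC7A11, SLC30A1, SLC2A1, SLC2A3 and SLC16A3 left out by name. FPKM divides the sequenced fragments of a gene by its transcript length and by the library's size, so that levels can be set side by side between genes. The rule kept 169 of the 374 SLC rows in a table of 20030 genes, after 200 SLC rows fell under the floor, 29 of them at 0 FPKM in every library. Just above the floor stood SLC22A18AS at 2.02 FPKM, SLC6A9 at 2.03, SLC22A9 at 2.04, SLC25A14 at 2.06 and SLC37A2 at 2.06. Just below it stood SLC25A12 at 1.97 FPKM, SLC13A5 at 1.85, SLC35G1 at 1.84, SLC39A11 at 1.78 and SLC35E4 at 1.69. The rule used the mean level, so the levels below are a description without a test, and the 5 genes left out by name take no part in any count of these 169.

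Solute carriers are membrane proteins that move small molecules by facilitated diffusion, by exchange or along ion gradients, in contrast to the ATP-driven pumps. They are grouped into numbered families by sequence, and most families have a typical kind of substrate. In the liver, solute carriers of the hepatocyte surface take up glucose, amino acids, bile salts, vitamins and metals, and those of the mitochondrial inner membrane, the SLC25 family, join the urea cycle, fat oxidation and respiration to the cytosol.

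RNA of the lines Huh7, PLC and 97H, spelled as in the labels, was sequenced in 10 libraries, 1 for each line and treatment. The CDK4/6 inhibitor group holds Huh7, PLC and 97H, and the XPO1 inhibitor group PLC and 97H. The combination of both inhibitors holds PLC and 97H, and the control Huh7, PLC and 97H. CDK4 and CDK6 are kinases that start the cell division cycle, and XPO1 carries proteins and RNA out of the nucleus; the labels name the XPO1 inhibitor as KPT330, leave the other inhibitor unnamed, and state no dose and no time. The series title places the combination in a study of senescence. The replicate of a treatment is thus the cell line, and each line was sequenced once per treatment. Every p-value of a treatment comparison measures the spread of treatment effects between lines. In the comparisons of lines, libraries of a line under other treatments stood in for replicates of that line. All comparisons with control share the same control libraries.

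The hepatocyte markers were checked first, since the labels call all 3 lines liver cells. The summed level of 10 hepatocyte genes was 6870 to 9310 FPKM in Huh7 libraries, 799 to 2436 FPKM in PLC libraries and 42.6 to 76.3 FPKM in 97H libraries, where ALB (albumin) stood between 2.32 and 15.9 FPKM. The solute carrier of bile salt uptake, SLC10A1, was at most 0.469 FPKM in any library and is no member. In Huh7 libraries the 4 bile duct markers summed to 474 to 582 FPKM. They summed to 14.5 to 29.7 FPKM in PLC and to 427 to 673 FPKM in 97H, above the hepatocyte genes there. PTPRC, the leukocyte marker, was at most 0.0226 FPKM, and DCN (decorin), a fibroblast marker, at most 0.114 FPKM. The list of 3 blood markers, with CD68 described below, summed to 2.79 to 8.57 FPKM in Huh7. It summed to 22.7 to 126.6 FPKM in PLC and 48.7 to 81.1 FPKM in 97H. The whole list of 5 fibroblast and stellate cell markers summed to 18.6 to 63.3 FPKM in Huh7 libraries, 0.223 to 0.683 FPKM in PLC and 3.58 to 30.7 FPKM in 97H. Its 2 tested genes had a median log2 difference with the combination of 1.23 (2.37 in 97H), both higher at an unadjusted p under 0.05 in limma, and their part in the results below was not tested. None of the 10 hepatocyte, 4 bile duct, 2 fibroblast, 1 endothelial and 1 blood markers tested passed with any treatment below.

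Substrate classes follow the numbered family unless a gene had its own entry, so a class does not establish what each gene carries. Of the 169 genes, 35 were in the mitochondrial carrier family SLC25, 26 were classed with amino acids, 22 with inorganic ions and 18 with nucleotide sugars. Classed with zinc, iron, copper, manganese or heme were 17, with nucleosides, vitamins, choline or acyl-CoA 15, and with fatty acids, bile salts or organic ions 15. A further 9 were classed with sugars or sugar phosphates and 6 with mono- or dicarboxylates. The other 6 have an SLC symbol without being transporters by name, among them SLC9A3R1 (NHERF1, a scaffold of membrane proteins) at a mean of 237 FPKM. The share of a class that was expressed differed: 35 of 48 mitochondrial carriers in the table and 18 of 31 nucleotide sugar transporters reached the floor, but 15 of 54 genes for fatty acids, bile salts and organic ions and 6 of 18 for mono- and dicarboxylates. In all, 91 genes were at 2 FPKM or more in every library. The 169 genes together held 1.05% to 1.49% of the FPKM of a library.

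The highest level belonged to SLC25A5 (ANT2, the exchanger of ADP for ATP across the mitochondrial inner membrane), with a mean of 444 FPKM. SLC25A3, the mitochondrial phosphate carrier, followed at 340.0 FPKM, and SLC3A2 (CD98, the heavy chain that brings several amino acid exchangers to the cell surface) at 245 FPKM. SLC39A1 (ZIP1, a zinc importer) had 163 FPKM, SLC39A7 (ZIP7, which releases zinc from the endoplasmic reticulum) 104 FPKM and SLC52A2 (a riboflavin transporter) 102 FPKM. The class medians lay closer together, between 7.12 FPKM for the mitochondrial carriers and 13.4 FPKM for the mono- and dicarboxylate carriers. The mitochondrial carriers held 30.7% of the summed FPKM of the 169 genes and the amino acid carriers 17.9%.

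**Figure D1:**
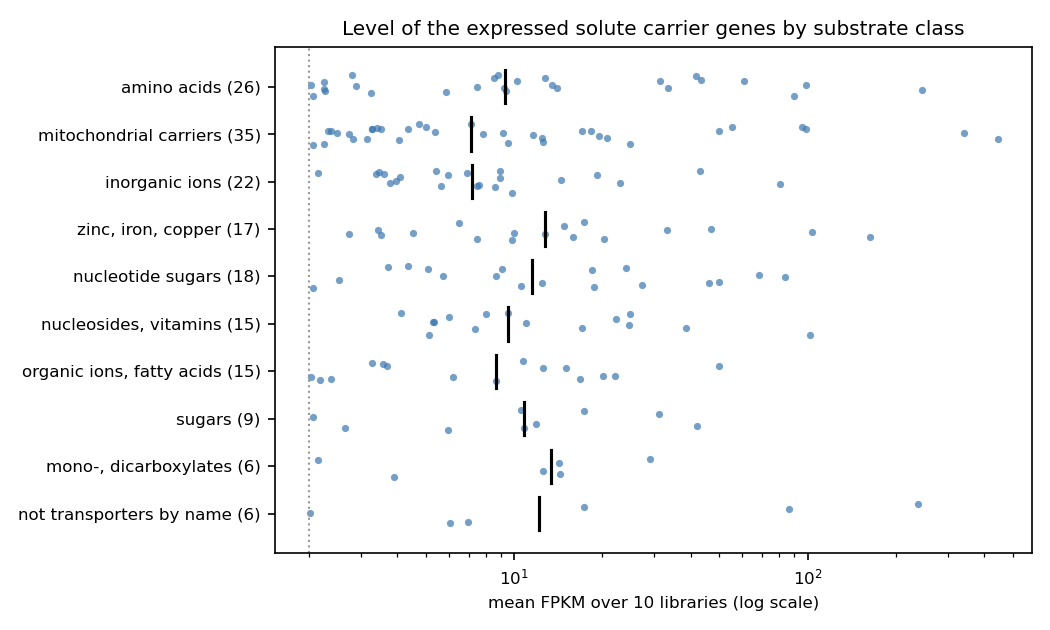
Mean FPKM over the 10 libraries (log scale) of the 169 expressed solute carrier genes in 10 substrate classes. Each point is a gene, the black bar is the class median, and the dotted line is the floor of 2 FPKM; class medians run from 7.12 to 13.4 FPKM, and the 2 points farthest right are the mitochondrial carriers SLC25A5 and SLC25A3.

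The combination was set against control in PLC and 97H, the lines in which it was sequenced. SLC43A2 (LAT4, a carrier of branched-chain and aromatic amino acids down their gradient) was the 1 gene of the 169 that passed the test, and it rose. Of all 10477 rows tested, 0.792% passed (0.305% higher and 0.487% lower), and 1 of 169 is near that share. The test was limma on log2(FPKM + 1) with the line as a block and Benjamini-Hochberg adjustment over all rows tested. At an unadjusted p under 0.05 stood 16 of the 169 genes, 10 higher and 6 lower, where 12.4% of all rows did. The median log2 difference was 0.15 over the 169 genes and 0.07 over all rows tested, and 0.17 and 0.06 over the 169 genes within PLC and within 97H. The floor of 2 FPKM used treated and control libraries together, and 12 of the 169 genes had a control mean under 2 FPKM. Such a floor favours genes that rose with treatment, also in the class medians below, and its part in them was not tested. The floor of 1 FPKM for all rows tested used the same libraries.

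SLC43A2 in PLC had 2.13 FPKM under the CDK4/6 inhibitor, 8.34 FPKM under the XPO1 inhibitor and 23.1 FPKM under the combination, against 2.81 FPKM in the control. In 97H it had 8.47, 15.8 and 25.3 FPKM with the CDK4/6 inhibitor, the XPO1 inhibitor and the combination, against 3.99 FPKM in the control. In Huh7 it had 2.72 FPKM with the CDK4/6 inhibitor, against 1.37 FPKM in the control. Both combination libraries were above every other library of the series, and both libraries of the XPO1 inhibitor alone were above the controls of all 3 lines. The log2 difference of the combination from control was 2.53 (SE 0.44, limma, adjusted p = 0.0435, n = 2 lines), at 2.66 in PLC and 2.40 in 97H. The adjusted p was 0.345 over all rows without a floor and 0.0559 when 1 prior variance replaced the trend, 1 without the line as a block, and 0.0726 to 0.389 when a combination library or its control was left out. SLC43A2 lies on the minus strand at chr17:1569267-1628886 of GRCh38 in the GENCODE annotation.

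RefSeq gives a start site of SLC43A2 inside that span, and the 250 bases before it are shown because SLC43A2 is the gene that passed. The same window of SLC3A2 is shown beside it, since SLC3A2 is the most abundant amino acid carrier subunit, and that of SLC44A2, whose response to the combination differed most between PLC and 97H. All are from RefSeq on GRCh38.p14, 5′ to 3′ on the strand of the gene, and capitals mark an AP-1 element (TGANTCA) or, overlapping it, the core of an antioxidant response element (TGACNNNGC).
SLC43A2 at chr17:1605035-1605284, minus strand: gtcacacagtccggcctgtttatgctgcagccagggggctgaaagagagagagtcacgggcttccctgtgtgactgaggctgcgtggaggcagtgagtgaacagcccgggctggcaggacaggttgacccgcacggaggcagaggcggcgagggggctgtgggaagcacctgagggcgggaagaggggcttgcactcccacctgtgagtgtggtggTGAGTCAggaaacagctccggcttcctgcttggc
SLC3A2 at chr11:62881449-62881698, plus strand: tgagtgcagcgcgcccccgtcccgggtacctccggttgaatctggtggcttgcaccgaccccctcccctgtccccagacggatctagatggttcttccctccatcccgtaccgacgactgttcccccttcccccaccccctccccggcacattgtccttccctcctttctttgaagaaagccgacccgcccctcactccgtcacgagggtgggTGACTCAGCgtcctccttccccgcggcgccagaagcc
SLC44A2 at chr19:10602205-10602454, plus strand: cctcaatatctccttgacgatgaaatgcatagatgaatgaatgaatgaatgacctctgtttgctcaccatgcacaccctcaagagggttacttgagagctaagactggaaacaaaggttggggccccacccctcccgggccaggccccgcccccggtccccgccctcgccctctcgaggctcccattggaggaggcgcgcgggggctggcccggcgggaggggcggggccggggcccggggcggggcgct

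In SLC43A2 the AP-1 letters span positions -34 to -28 before the start site, and in SLC3A2 positions -37 to -31. RefSeq windows from 250 bases before to 50 after the start were at hand for 138 of the 169 genes. On both strands, TGANTCA stood in 6.52% of those 138 windows and in 7.76% of all 27305 RefSeq windows. TGACNNNGC stood in 18.8% and 13.6%, the ATF4 and C/EBP composite letters TGATGNAA in 5.07% and 3.67%, and the E-box CACGTG in 10.1% and 7.44%. By class, TGANTCA stood in 5 of 23 windows of amino acid carriers, the class of SLC43A2 and SLC3A2, and in 0 of 30 of mitochondrial carriers. These class counts are small and were not tested. SLC3A2 also held the ATF4 and C/EBP letters at positions 37 to 44, after the start and outside the bases shown. A match is a description of letters and no measure of a factor's binding, and the SLC44A2 window held none of these letters.

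Among the other amino acid carriers, SLC3A2 and its partners SLC7A5, SLC7A7 and SLC7A8 had positive log2 differences with the combination, and none of these passed. The class of 26 genes had a median log2 difference of 0.25, at 0.31 in PLC and near 0 in 97H (-0.0009), with 1 gene that passed and 3 at an unadjusted p under 0.05, all higher. SLC3A2 itself had 187, 250.02 and 440.3 FPKM with the CDK4/6 inhibitor, the XPO1 inhibitor and the combination in PLC, against 189 FPKM in the control. In 97H it had 266, 334 and 323 FPKM with the same treatments, against 204 FPKM in the control, and in Huh7 it had 149 FPKM with the CDK4/6 inhibitor, against 109 FPKM in the control. Its combination libraries thus lay above both controls, at a log2 difference of 0.94 (SE 0.29, limma, adjusted p = 0.224).

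SLC7A7 (y+LAT1) is the partner of SLC3A2 that lets lysine and arginine out of cells. In Huh7 it had 122 FPKM with the CDK4/6 inhibitor, against 33.9 FPKM in the control. In PLC it had 15.7, 12.8 and 13.8 FPKM with the CDK4/6 inhibitor, the XPO1 inhibitor and the combination, against 6.69 FPKM in the control, and in 97H it had 30.9, 30.6 and 48.4 FPKM, against 20.6 FPKM. Every treated library was above the control of its own line. The log2 difference was 1.07 with the combination (SE 0.33, adjusted p = 0.219) and 1.17 with the CDK4/6 inhibitor over 3 lines (SE 0.28, adjusted p = 0.461), the smallest p of the 169 genes for that inhibitor, and neither passed.

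SLC7A5 (LAT1, the main importer of leucine and other large neutral amino acids) had a log2 difference of 0.67 with the combination (adjusted p = 0.464). The glutamine importer SLC1A5 (ASCT2) had one of -0.40 (adjusted p = 0.682), with 56.5 FPKM with the combination against 84.1 FPKM in the control of PLC, and 141 FPKM against 165 FPKM in 97H. SLC38A5 (SNAT5, a sodium-coupled carrier of glutamine and glycine) was expressed in 97H and stayed under 1 FPKM in the other lines. There it had 44.9 FPKM under the CDK4/6 inhibitor, 27.7 FPKM under the XPO1 inhibitor and 7.73 FPKM under the combination, against 53.2 FPKM in the control. Its combination library was the lowest of that line (log2 difference over both lines -1.31, SE 0.63, adjusted p = 0.44).

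**Figure D2:**
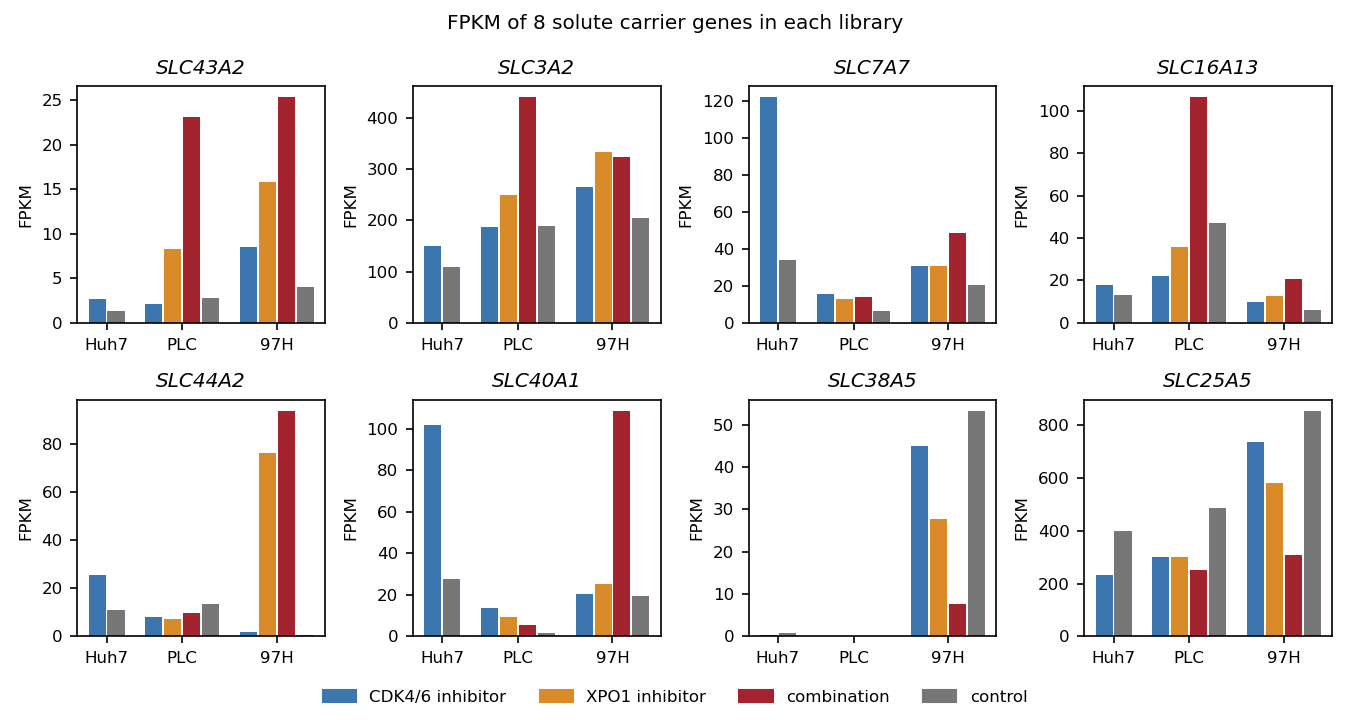
FPKM of 8 solute carrier genes in each of the 10 libraries, grouped by line, with bars for the CDK4/6 inhibitor, the XPO1 inhibitor, the combination and the control (Huh7 has the first and the last). Each bar is 1 library; SLC43A2 is highest in both combination libraries (23.1 and 25.3 FPKM), SLC44A2 in the 97H libraries with the XPO1 inhibitor and the combination (76.3 and 94.0 FPKM), and SLC25A5 is below its line's control in every treated library.

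The choline transporter-like genes SLC44A2 and SLC44A3 stood out among the 15 carriers of nucleosides, vitamins, choline and acyl-CoA. SLC44A2, at chr19:10602457-10644559, had 76.3 FPKM with the XPO1 inhibitor, 94.0 FPKM with the combination and 1.86 FPKM with the CDK4/6 inhibitor in 97H, against 0.650 FPKM in the control. In PLC it had 8.30 FPKM under the CDK4/6 inhibitor, 7.36 FPKM under the XPO1 inhibitor and 9.83 FPKM under the combination, against 13.6 FPKM in the control. In Huh7 it had 25.5 FPKM with the CDK4/6 inhibitor, against 10.99 FPKM in the control. The 97H libraries with KPT330, alone or combined, were thus far above the rest of that line, while each treated PLC library was below its control. The log2 difference of the combination was 5.85 in 97H and -0.43 in PLC, and over both lines it did not pass (2.71, SE 1.39, adjusted p = 0.479).

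SLC44A3 had log2 differences of 1.29 with the combination (SE 0.41, adjusted p = 0.224) and 0.998 with the XPO1 inhibitor (adjusted p = 0.968). It had 18.3 FPKM with the combination against 6.74 FPKM in the control of PLC, and 4.94 FPKM against 1.48 FPKM in 97H. SLC5A6, the sodium-dependent importer of biotin and pantothenate, was lower than control in each treated library. It had 26.2, 30.9 and 31.1 FPKM with the CDK4/6 inhibitor, the XPO1 inhibitor and the combination in PLC, against 67.1 FPKM in the control, and 13.9, 14.3 and 9.22 FPKM in 97H, against 17.9 FPKM. Its log2 difference was -0.99 with the combination (SE 0.35, adjusted p = 0.283) and -0.85 with the CDK4/6 inhibitor (adjusted p = 0.474), where Huh7 had 12.4 FPKM against 23.5 FPKM in the control. SLC19A1, the reduced folate carrier, had log2 differences of -0.86 and -0.70 in those comparisons and did not pass either.

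Among the mitochondrial carriers none passed, and the 3 at an unadjusted p under 0.05 with the combination were all lower. SLC25A5 had the smallest p of them. It had 231 FPKM with the CDK4/6 inhibitor in Huh7, against 399 FPKM in the control. In PLC it had 299, 299 and 252 FPKM with the CDK4/6 inhibitor, the XPO1 inhibitor and the combination, against 484 FPKM in the control. The 97H libraries had 734, 578 and 308 FPKM, against 853 FPKM in the control. All 7 treated libraries lay below the control of their own line. The log2 difference was -1.20 with the combination (SE 0.29, adjusted p = 0.132), -0.63 with the XPO1 inhibitor (adjusted p = 0.968) and -0.57 with the CDK4/6 inhibitor (adjusted p = 0.515).

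SLC25A11, the oxoglutarate and malate exchanger, had a log2 difference with the combination of -0.74 (adjusted p = 0.389) and the phosphate carrier SLC25A3 -0.52 (adjusted p = 0.47). The class held values of both signs: 16 of its 35 genes had a positive log2 difference and the class median was -0.01, which turned positive when GC and length trends were removed. The summed FPKM of the class was nevertheless lower, at 1044 in the combination library against 1673 in the control of PLC and 1067 against 1680 in 97H, a sum in which SLC25A5 and SLC25A3 weigh most. By cargo, none of 11 tested nucleotide carriers (median 0.09), 13 carboxylate and amino acid carriers (median -0.005) and 5 phosphate, iron and uncoupling carriers (median -0.13) passed. The ADP and ATP exchangers share sequence, how reads of several loci were counted is not given in the sources used here, and SLC25A6, annotated at 2 loci, was listed at a mean of 2.37 FPKM, so levels within that group are uncertain.

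The 17 metal carriers had a median log2 difference of 0.34 with the combination, 0.25 with the XPO1 inhibitor and 0.40 with the CDK4/6 inhibitor, where all tested rows had 0.07, 0.10 and 0.03. None passed. The class median stood apart in PLC, at 1.02 under the CDK4/6 inhibitor, 0.70 under the XPO1 inhibitor and 0.55 under the combination. In 97H the medians were -0.18, -0.24 and 0.12 with the same treatments, and in Huh7 the median was 0.37 with the CDK4/6 inhibitor.

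SLC40A1 (ferroportin, the exporter of iron from cells) had the largest log2 difference of the class. In Huh7 it had 102 FPKM with the CDK4/6 inhibitor, against 27.5 FPKM in the control. In PLC it had 13.9, 9.45 and 5.32 FPKM with the CDK4/6 inhibitor, the XPO1 inhibitor and the combination, against 1.55 FPKM in the control, and in 97H it had 20.2, 24.97 and 108.5 FPKM, against 19.2 FPKM. Every treated library was above its own control, by the most in PLC with the CDK4/6 inhibitor and in 97H with the combination, and it did not pass (combination 1.87, SE 0.74, adjusted p = 0.336; CDK4/6 inhibitor 1.49, SE 0.57, adjusted p = 0.515).

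The copper importer SLC31A1 (CTR1) and the Golgi zinc loader subunit SLC30A6 had higher values in treated PLC libraries, and neither passed. SLC31A1 had 33.9, 19.7 and 28.5 FPKM with the CDK4/6 inhibitor, the XPO1 inhibitor and the combination in PLC, against 8.52 FPKM in the control, but 8.57, 10.9 and 11.6 FPKM in 97H, against 13.2 FPKM. All treated libraries were thus above control in PLC and below it in 97H. SLC30A6 had 7.71, 6.09 and 6.09 FPKM with these treatments in PLC, against 1.33 FPKM in the control, and 0.889, 1.59 and 2.81 FPKM in 97H, against 2.49 FPKM. SLC48A1 (HRG1), which moves heme out of lysosomes, was higher with the CDK4/6 inhibitor in all 3 lines, at 13.8 FPKM against 5.56 FPKM in the control of Huh7, 30.3 FPKM against 14.4 FPKM in PLC and 27.7 FPKM against 19.7 FPKM in 97H (log2 difference 0.89, SE 0.25, adjusted p = 0.47). With the combination it had 12.4 FPKM in PLC and 13.97 FPKM in 97H, below the control of each line.

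Base composition moved with these differences. Across the 169 genes, the Spearman rho of the log2 ratio with the GC content of the transcript was -0.74 in PLC and 0.74 in 97H with the CDK4/6 inhibitor, -0.78 and 0.46 with the XPO1 inhibitor, and -0.35 and 0.35 with the combination. In Huh7 it was 0.10 with the CDK4/6 inhibitor. These are correlations across genes of single library pairs, which share the library and its depth, so no p is given. In PLC, transcripts poor in GC were higher in treated libraries, and in 97H those rich in GC; its part in the differences between lines was not tested. With GC and length trends removed from the log2 values of each library, 8 of the 169 genes passed with the combination. Of all rows 5.35% passed there, near the share of the 169. The 4 higher ones were SLC43A2 (log2 difference 2.49), SLC16A13 (1.41), SLC44A3 (1.23) and SLC27A3 (1.19), and among the 4 lower ones were SLC25A5 (-1.14), SLC37A4 (-0.94) and SLC5A6 (-0.92).

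**Figure D3:**
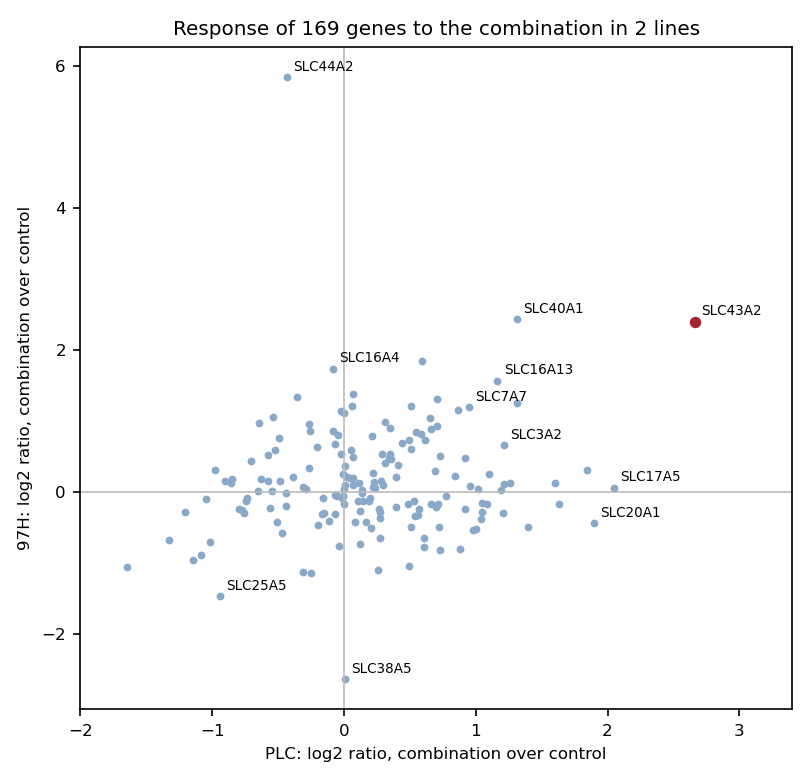
Log2 ratio of FPKM + 1 of the combination over control in PLC (horizontal axis) and 97H (vertical axis) for the 169 genes; each point is a gene, and the red point, SLC43A2, is the gene that passed the test. SLC43A2 is high in both lines (2.66 and 2.40), SLC44A2 in 97H alone (5.85 against -0.43 in PLC), and SLC38A5 is low in 97H (-2.64).

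Of the mono- and dicarboxylate carriers, SLC16A13 (MCT13, of the family that includes the lactate carriers) had 22.1, 35.9 and 106 FPKM with the CDK4/6 inhibitor, the XPO1 inhibitor and the combination in PLC, against 46.9 FPKM in the control. The 97H libraries had 9.80, 12.8 and 20.6 FPKM, against 6.26 FPKM in the control, and in Huh7 17.7 FPKM with the CDK4/6 inhibitor, against 13.1 FPKM. In both lines the combination library was the highest, while in PLC each inhibitor alone stood below the control. The log2 difference was 1.37 against control (SE 0.43, adjusted p = 0.221) and 1.60 against the CDK4/6 inhibitor alone (adjusted p = 0.628). The class of 6 genes had a median of 0.43, at 0.05 in PLC and 0.91 in 97H.

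The 9 sugar carriers had a median of 0.12, with values of both signs. SLC37A4, which carries hexose phosphate into the endoplasmic reticulum for glucose release, had 17.8, 19.6 and 18.1 FPKM with the CDK4/6 inhibitor, the XPO1 inhibitor and the combination in PLC, against 41.3 FPKM in the control. In 97H it had 10.5, 8.89 and 5.98 FPKM, against 12.6 FPKM in the control, and in Huh7 15.4 FPKM with the CDK4/6 inhibitor, against 22.6 FPKM. All 7 treated libraries were below their own control, and the log2 difference with the combination was -1.05 (SE 0.36, adjusted p = 0.259). SLC2A6, a glucose transporter family member of lysosomes, had a log2 difference of 1.01 (adjusted p = 0.37), with 22.3 FPKM with the combination against 11.8 FPKM in the control of PLC and 6.45 FPKM against 2.33 FPKM in 97H.

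The fatty acid and organic ion carriers had a median of 0.05 over 15 genes. Of the acyl-CoA synthetases of the SLC27 family, SLC27A3 had a log2 difference of 1.22 (adjusted p = 0.25) and SLC27A5, the liver enzyme that activates bile acids, one of -1.003 (adjusted p = 0.319). SLC17A5 (sialin, which lets sialic acid out of lysosomes) had 134, 74.1 and 117 FPKM with the CDK4/6 inhibitor, the XPO1 inhibitor and the combination in PLC, against 27.4 FPKM in the control. In 97H it had 12.3, 14.1 and 15.4 FPKM, against 14.7 FPKM, so that treated and control libraries lay close together there and far apart in PLC (log2 difference with the combination 1.06, adjusted p = 0.458). SLC22A18 and its antisense neighbour SLC22A18AS had log2 differences of 1.08 and 0.85 (adjusted p = 0.373 and 0.276); the counting is not stated to use strand, and reads of the overlap cannot be assigned to either.

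None of the 22 inorganic ion carriers and none of the 18 nucleotide sugar transporters passed with the combination, and none was at an unadjusted p under 0.05 in limma. The ion carriers had a median of 0.26, with 16 of 22 positive, at 0.26 in PLC and 0.43 in 97H. SLC8B1 (the mitochondrial sodium and calcium exchanger) at 0.82 and SLC9B2 (a sodium and proton exchanger) at 0.70 had the smallest p of the ion carriers. SLC20A1 (PiT1, a sodium-coupled phosphate importer) had 38.5, 38.4 and 91.8 FPKM with the CDK4/6 inhibitor, the XPO1 inhibitor and the combination in PLC, against 23.9 FPKM in the control. In 97H it had 47.4, 44.9 and 34.4 FPKM, against 46.9 FPKM, so that the combination library was the highest in PLC and the lowest in 97H. The nucleotide sugar transporters, which supply the Golgi with sugar donors, had a median of 0.08, at 0.39 in PLC and -0.11 in 97H, with SLC35C1 (a GDP-fucose transporter) at 0.56 and SLC35A2 (a UDP-galactose transporter) at 0.49.

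**Figure D4:**
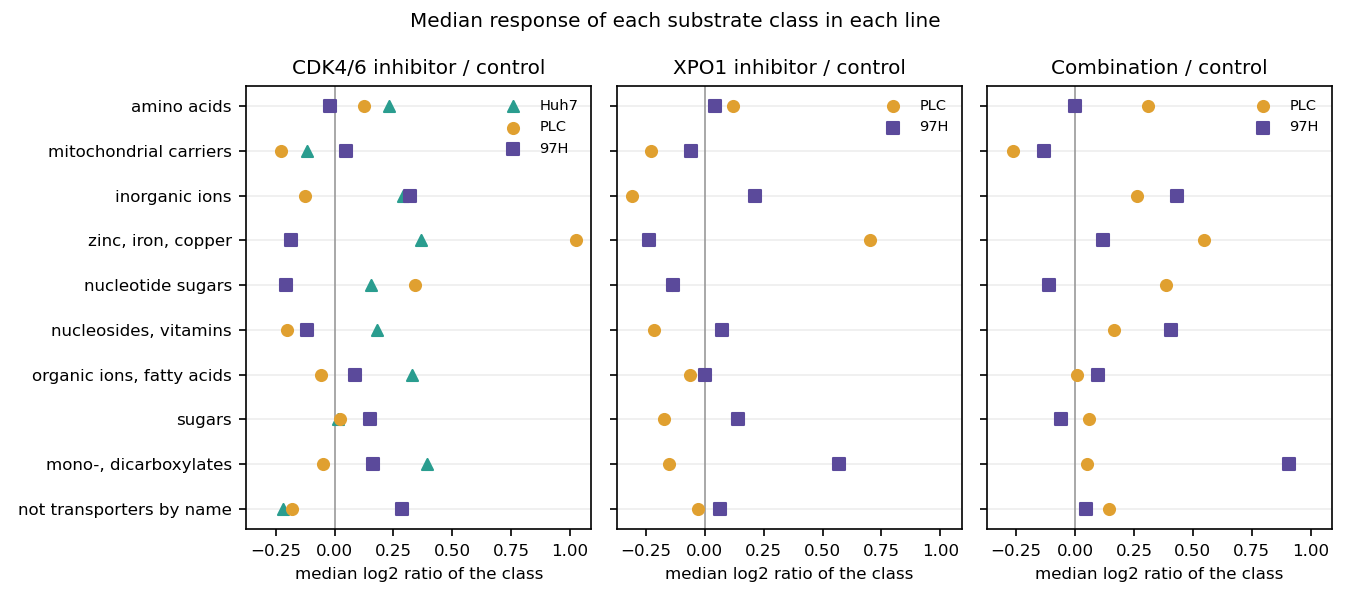
Median log2 ratio to control of each of the 10 substrate classes in Huh7 (triangles), PLC (circles) and 97H (squares) for the CDK4/6 inhibitor, the XPO1 inhibitor and the combination. Each symbol rests on 1 treated and 1 control library; the metal carriers stand at 1.02 in PLC and -0.18 in 97H with the CDK4/6 inhibitor, and the mono- and dicarboxylate carriers at 0.91 in 97H with the combination.

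With each inhibitor alone none of the 169 genes passed, nor did any other of the 10477 rows (0% called). At an unadjusted p under 0.05 by limma stood 16 of the 169 genes with the CDK4/6 inhibitor, 12 higher and 4 lower, where 8.8% of all rows did. With the XPO1 inhibitor there were 3 genes, where 2.46% of all rows did: SLC43A2 at 1.52, SLC44A3 at 0.998 and SLC25A10, the dicarboxylate carrier, at -0.83. For the CDK4/6 inhibitor these were led by SLC7A7 and SLC48A1, described above, and by SLC7A8 (LAT2, another partner of SLC3A2). SLC7A8 had 22.5 FPKM with the CDK4/6 inhibitor against 5.25 FPKM in the control of Huh7, 1.29 FPKM against 0.115 FPKM in PLC and 0.580 FPKM against 0.340 FPKM in 97H (log2 difference 1.06, SE 0.31, adjusted p = 0.47).

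The combination was also set against each inhibitor alone, and the difference between its effect and the sum of both single effects was tested. None of the 169 genes passed in these comparisons, nor did any other tested gene (0% called). Against the CDK4/6 inhibitor alone, 8 of the 169 genes had an unadjusted p under 0.05 by limma, where 3.29% of all rows did, with SLC43A2 at a log2 difference of 2.21 (SE 0.44, adjusted p = 0.263). Against the XPO1 inhibitor alone there were 7, all higher with the combination, where 4.96% of all rows were, with SLC38A10 (a carrier of the SNAT family) at 1.05 and SLC43A2 at 1.01. The interaction had 1 such gene, where 0.573% of all rows did: SLC48A1, at -1.14 (limma, adjusted p = 0.9999).

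For most of the 169 genes, the range between the control libraries of the lines was larger than the range over treatments. The median range over the 3 control libraries was 1.55 on the log2 scale, and the median of the larger treatment range of PLC and 97H was 1.05. For 120 genes the range between lines was the larger and for 49 the range between treatments, which compares 3 libraries with 4 and is a description. The floor kept some genes through 1 line only, which favours the range between lines, and the same share over all tested rows was not computed. Between PLC and 97H, 88 of the 169 genes passed, 48 higher in PLC and 40 lower (limma, adjusted p under 0.05), where 44.3% of all rows passed, 27.7% higher and 16.6% lower. Between Huh7 and PLC 72 passed, 36 in each direction, where 28.3% of all rows passed, 13.4% higher and 14.9% lower. Between Huh7 and 97H 77 passed, 39 higher in Huh7 and 38 lower, where 35.2% of all rows passed, 20.1% higher and 15.1% lower. In all 3 comparisons, differently treated libraries of a line stood in for its replicates. The counts with Huh7 rest on its 2 libraries. For Huh7 against PLC, 30 passed without the CDK4/6 inhibitor library and 30 without the control, and for Huh7 against 97H 45 and 43. For PLC against 97H, fitted without Huh7, the count ran from 61 to 97 with 1 library left out. A gene that reached the floor of 2 FPKM through 1 line had to differ from the others, so these counts are read no further: 120 genes had a line mean of at least 2 FPKM in all 3 lines, 24 in 2 lines and 25 in 1 line.

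Among the 120 genes with a line mean of at least 2 FPKM in all 3 lines, SLC43A1 and SLC6A8 had the largest log2 differences of PLC from 97H and of Huh7 from 97H, and SLC40A1 that of Huh7 from PLC (3.38). SLC6A8, the creatine transporter, had 10.8, 6.40 and 17.3 FPKM with the CDK4/6 inhibitor, the XPO1 inhibitor and the combination in PLC and 25.6 FPKM in its control. In 97H the same order of libraries had 119, 146, 175 and 83.6 FPKM, and Huh7 had 14.3 FPKM with the CDK4/6 inhibitor and 7.27 FPKM in the control. Every 97H library was thus above every library of the other lines (log2 difference of PLC from 97H -3.15, SE 0.37, limma, adjusted p = 0.000159). SLC6A6, the taurine transporter, was likewise lower in PLC, with 2.93 to 3.70 FPKM in PLC libraries, against 16.3 to 36.2 FPKM in 97H libraries (-2.64, SE 0.30, adjusted p = 0.000121).

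SLC43A1 (LAT3), the near relative of SLC43A2, had the opposite order. It had 63.05 and 71.3 FPKM in Huh7 and 26.4 to 58.0 FPKM in PLC, against 2.39 to 4.07 FPKM in 97H, without overlap between 97H and the others. The log2 difference was 3.23 for PLC from 97H (SE 0.27, adjusted p = 2.50e-05) and 3.90 for Huh7 from 97H (SE 0.32, limma, adjusted p = 1.12e-05). With the combination its log2 difference from control was -0.52 (adjusted p = 0.662), so the pair of relatives differed in sign there.

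SLC39A14 (ZIP14, an importer of zinc, iron and manganese of the hepatocyte surface) had 83.4 and 82.4 FPKM in Huh7 libraries and 34.1 to 78.6 FPKM in PLC libraries, against 12.6 to 18.7 FPKM in 97H libraries. The log2 difference of PLC from 97H was 1.87 (SE 0.29, limma, adjusted p = 0.000823) and of Huh7 from 97H 2.41 (SE 0.36, adjusted p = 0.000547). SLC35D2, a nucleotide sugar transporter of the Golgi, ran in the same order, with 119 to 130.1 FPKM in Huh7, 57.1 to 83.4 FPKM in PLC and 30.1 to 40.6 FPKM in 97H. It was higher in PLC than in 97H by 1.04 (SE 0.22, limma, adjusted p = 0.00459). The citrate carrier SLC25A1, which supplies acetyl groups for lipid synthesis, differed less: its Huh7 libraries had 136 and 153 FPKM, against 47.7 to 94.9 FPKM in 97H (1.04, SE 0.34, limma, adjusted p = 0.0382), and PLC and 97H did not pass (0.58, adjusted p = 0.121).

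For 21 genes every library of at least 1 line was under 0.5 FPKM while another line averaged at least 5 FPKM. Since they were chosen for that pattern, their levels are a description without a test. Huh7 alone was above 0.5 FPKM for SLC47A1 (MATE1, an exporter of drugs and organic cations at the bile canaliculus) and SLC22A9 (OAT7, a liver anion transporter). SLC47A1 had 35.7 FPKM with the CDK4/6 inhibitor and 25.1 FPKM in the control of Huh7, 0.0200 to 0.166 FPKM in PLC libraries and 0.148 to 0.395 FPKM in 97H libraries. SLC22A9 had 11.7 and 8.52 FPKM in the Huh7 libraries and at most 0.0634 FPKM elsewhere. Both Huh7 libraries of each gene were thus far above all others.

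The hepatocyte glucose transporter SLC2A2 (GLUT2) had 54.9, 20.4 and 22.1 FPKM with the CDK4/6 inhibitor, the XPO1 inhibitor and the combination in PLC, against 19.9 FPKM in the control, and at most 1.19 FPKM in Huh7 and 0.0955 FPKM in 97H. The line with the most SLC2A2 was therefore not the line with the highest summed hepatocyte markers. SLC15A1 (PEPT1, the importer of small peptides), which is not among the 21, had 28.1, 28.8 and 19.9 FPKM in the same treated PLC libraries, against 8.88 FPKM in the control, and at most 1.54 FPKM in the other lines.

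97H alone was above 0.5 FPKM for SLC5A11 (SMIT2, a myo-inositol carrier), SLC9A2 (the sodium and proton exchanger NHE2) and SLC16A14. SLC5A11 had 12.4 to 18.1 FPKM in 97H libraries, 0 to 0.0732 FPKM in PLC libraries and 0.272 and 0.273 FPKM in Huh7 libraries. A gene near 0 in PLC and expressed in both other lines was seen for SLC17A9 (VNUT, which loads ATP into vesicles), SLC25A38 (the mitochondrial glycine carrier needed for heme synthesis) and SLC12A8. SLC17A9 had 0.0426 to 0.0956 FPKM in PLC libraries, 27.9 to 37.0 FPKM in 97H libraries and 35.9 to 39.2 FPKM in Huh7 libraries. SLC25A38 had 0.0138 to 0.0777 FPKM in PLC, 9.58 to 15.1 FPKM in 97H and 18.4 to 20.9 FPKM in Huh7.

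Amino acid, zinc and folate carriers were also among the 21. SLC6A19, an importer of neutral amino acids known from gut and kidney, had 16.2 and 10.7 FPKM in Huh7 libraries, at most 0.584 FPKM in PLC and at most 0.0354 FPKM in 97H. SLC39A5 (ZIP5, a zinc importer) had 19.6 and 23.5 FPKM in Huh7, and SLC46A1 (PCFT, the proton-coupled folate carrier) 35.8 and 25.1 FPKM, while every 97H library was under 0.5 FPKM for both. SLC16A4, of the monocarboxylate family, was at most 0.105 FPKM in PLC, and in 97H it had 5.11, 9.01 and 18.9 FPKM with the CDK4/6 inhibitor, the XPO1 inhibitor and the combination, against 4.98 FPKM in the control. SLC35F2, of a family named for nucleotide sugars, was the 1 gene under 0.5 FPKM in Huh7 alone, with 6.72 to 14.2 FPKM in PLC and 12.1 to 21.4 FPKM in 97H.

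**Figure D5:**
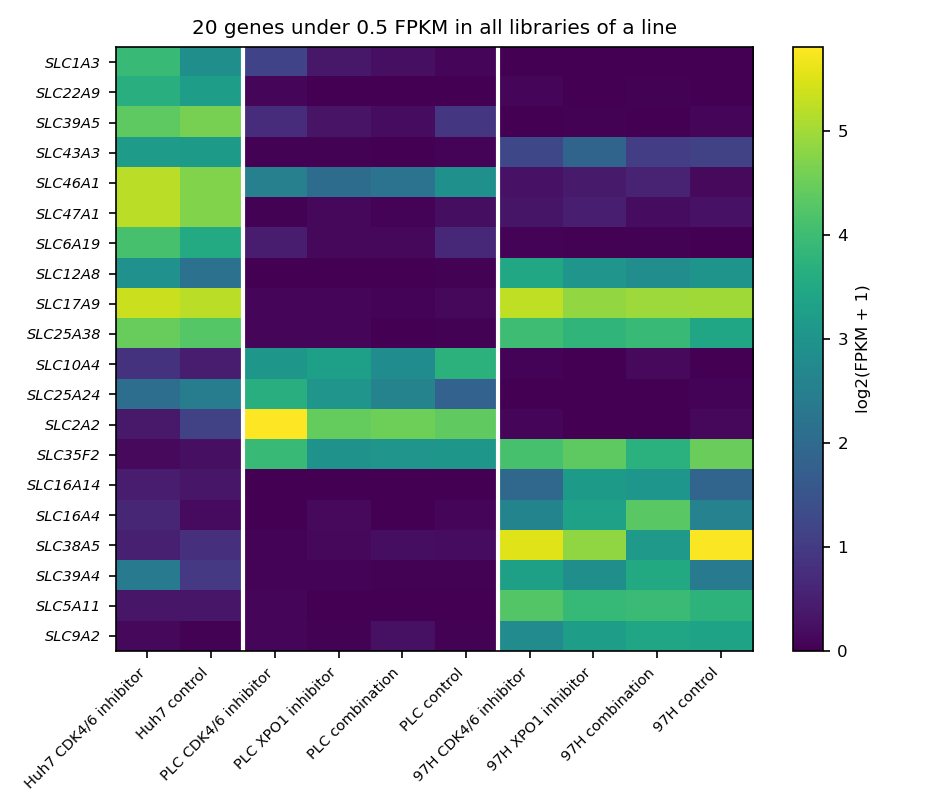
Log2(FPKM + 1) of 20 of the 21 genes that were under 0.5 FPKM in every library of at least 1 line while another line averaged at least 5 FPKM, by library. Columns are libraries of Huh7, PLC and 97H with the control last in each, white lines part the lines, and colour runs from dark (0) to yellow. Rows are ordered by the line that expressed the gene. Several genes also varied by treatment within a line, among them SLC38A5, SLC25A24, SLC16A4 and SLC2A2.

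Carriers that work together in other settings were counted as lists, each set beside all tested rows (median log2 difference with the combination 0.07). Of 9 tested carriers of lysosomes none passed with any treatment, and 3 were at an unadjusted p under 0.05 with the CDK4/6 inhibitor, all higher, where 8.8% of all rows were; their median was 0.28 with the combination. CD68, a marker of macrophages and of lysosomes in general, had 126.6 FPKM with the combination against 22.7 FPKM in the control of PLC and 81.1 FPKM against 48.5 FPKM in 97H, and its part in these values was not tested. Of 7 tested amino acid carriers that the stress factor ATF4 is known to induce, none passed, and the median was 0.41 with the combination, 0.07 with the XPO1 inhibitor and 0.20 with the CDK4/6 inhibitor. Of 17 tested carriers of hepatocytes, 1 passed with the combination, where 0.792% of all rows did, and their median was 0.01. It was SLC6A12 (BGT1, a betaine carrier that responds to osmotic stress), which at a mean of 1.44 FPKM lies under the floor and was named after its values were seen. It had 4.89 FPKM with the combination against 0.417 FPKM in the control of PLC and 2.16 FPKM against 0.184 FPKM in 97H (log2 difference 1.74, limma, adjusted p = 0.0435).

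SLC6A12 was also the 1 row that passed among the 30 SLC rows with a mean of 1 to 2 FPKM. Of 64 tested genes for other membrane transport (ATP-driven pumps, channels and SLCO, SFXN and SPNS carriers), none passed with the combination, and their median was 0.24, at 0.44 in PLC and -0.04 in 97H. Their smallest p belonged to SLCO2B1 (an organic anion uptake carrier), at 1.27 (adjusted p = 0.206), which had 10.3 FPKM with the combination against 3.39 FPKM in the control of PLC and 9.74 FPKM against 3.76 FPKM in 97H.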

How the data were processed

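The labels' protocols name Trizol for total RNA and a TruSeq RNA kit for the libraries. The submitters' processing notes name CASAVA 1.8.2, STAR, featureCounts of Subread and the build GRCh38; neither the annotation nor the step to FPKM is stated in them. The deposited values are FPKM by the authors; whole reads could not be recovered, so depth is unknown and no count test was run.

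Differences were tested with limma 3.58.1 (R 4.3.3) on log2(FPKM + 1), with a variance trend, for the 10477 rows with a mean of at least 1 FPKM; the pseudocount of 1 understates changes of low genes. The cell line was a block, taken from the labels: the deviations of control and CDK4/6 inhibitor libraries of 1 line correlated at 0.901 (Huh7), 0.665 (PLC) and 0.818 (97H). The CDK4/6 inhibitor comparison and those of Huh7 used 10 libraries and the others the 8 of PLC and 97H. The comparisons of lines had treatment as a term. An adjusted p (Benjamini-Hochberg over all rows tested) under 0.05 passed. The fit was tested on simulated data. Ratios within a line have no test.

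The genes, substrate classes and lists were chosen with earlier results of these data known. Named genes were taken from those that passed, or else those of smallest p with 1 direction in every line, the 15 of highest mean, and per class the 3 highest and the 2 of smallest p. Only part of the genes that this rule gives are named in the text. SLC44A2, SLC38A5, SLC17A5, SLC31A1, SLC30A6, SLC7A8 and SLC6A12 and the genes of the line comparisons were also named after their values were seen. GC content and positions are from GENCODE 29; promoters are from RefSeq. Alternatives tried were another pseudocount (0.1), no filter, quantile and median-of-ratios scaling, removal of GC and length trends, no block, all libraries in 1 fit, a single prior variance and leaving out each library. Results of 2 genes are not reported here.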

Additional observations from a re-analysis of the deposited data

Results flagged for a closer look

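The responses of SLC16A1 (MCT1, a lactate and pyruvate carrier) and SLC38A1 (SNAT1, a glutamine carrier) to the CDK4/6 inhibitor ran in opposite directions between lines by more than 1 on the log2 scale, and the difference was not tested. Other genes, among them SLC30A6 and SLC35D1, were likewise higher in PLC and lower in 97H, by less than 1 in 97H. Across the 169 genes the ratio had a Spearman rho with transcript GC content of -0.74 in PLC and 0.74 in 97H. The part of GC content in the responses of SLC16A1 and SLC38A1 was not tested. SLC16A1 had a log2 ratio to control of 0.38 in Huh7; it was 1.52 in PLC and -1.17 in 97H, with 25.01 FPKM against 19.0 FPKM in the control of Huh7, 25.9 FPKM against 8.41 FPKM in PLC and 3.98 FPKM against 10.2 FPKM in 97H. SLC38A1 had a ratio of -0.20 in Huh7; it was 1.43 in PLC and -1.21 in 97H, with 6.07 FPKM against 7.11 FPKM in the control of Huh7, 10.7 FPKM against 3.35 FPKM in PLC and 5.74 FPKM against 14.6 FPKM in 97H.

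The class median of the zinc, iron, copper, manganese and heme carriers differed in sign between lines by at least 0.75, a distance set after the values were seen. With the CDK4/6 inhibitor it stood at 0.37 in Huh7, at 1.02 in PLC and at -0.18 in 97H, and with the XPO1 inhibitor 0.70 in PLC and -0.24 in 97H. The difference was not tested, and each value rests on 1 treated and 1 control library. The GC content of transcripts moved with the ratios in opposite directions in these lines, and its part was not tested.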

How the results depend on the processing

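Of the 169 genes, 1 passed with the combination in the values above, 0 with no filter on low genes, 0 with a single prior variance, 2 with all 10 libraries in the fit (SLC43A2 and SLC25A5 at -1.26) and 8 with GC and length trends removed; of all rows 0.03%, 0.258%, 2.49% and 5.35% passed under those 4 settings. Under that removal 1 also passed against the CDK4/6 inhibitor alone (SLC43A2 at 2.16), where 0.46% of all rows did. The pairing by line matters to the call: without the block 0 passed with the combination. With 1 library left out the count ran from 0 to 1 with the combination, being 0 without the PLC control, the PLC combination, the 97H control or the 97H combination library. It was 0 to 0 in the other treatment comparisons, 61 to 97 for PLC against 97H, 30 to 76 for Huh7 against PLC and 43 to 91 for Huh7 against 97H. None of the genes of the 169 that passed in any comparison changed sign under any of these settings. Quantile normalization moved the median of all rows under the XPO1 inhibitor to -0.01 from 0.10. Depth is unknown, so genes near 0 FPKM cannot be called absent, and each line and treatment has 1 library.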
